A study of Homo sapiens with 6 samples.

Results

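The genes described here are the expressed long intergenic noncoding (LINC) genes of PC-9 cells, a human lung adenocarcinoma line with an activating EGFR mutation. They were selected on measured values: each has a symbol made of LINC and a number, and an expected count of at least 60 summed over its transcripts and the 6 libraries. The rule took 125 of the 26334 gene symbols in the deposited tables. In all, 874 symbols had a LINC name, of which 514 had no count and 235 had a count above 0 but below 60. PC-9 cells were grown in RPMI with serum, and neither the labels nor the RNA-Seq methods name a drug. The cells carried either a scrambled control shRNA (shScr) or an shRNA against RBM10 (shRBM10#1 or shRBM10#2). RBM10 is an RNA-binding protein that regulates alternative splicing. RNA-Seq gave 2 libraries per condition. The control is given as shScr by the labels and by the paper's results section, but as parental cells by its methods. The labels are followed here. Nothing in the labels says that the replicates were separate cultures, so p-values measure only the spread between these libraries, which may be technical.

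LINC symbols are placeholder names for long transcripts from loci between protein-coding genes that were thought to encode no protein. Most are transcribed by RNA polymerase II, spliced and polyadenylated, and many are scarce and restricted to certain tissues. A few were later shown to act as RNA, such as NORAD, which binds Pumilio proteins. Others were found to hold a short reading frame for a microprotein and were renamed after it. Several LINC transcripts have been studied in lung adenocarcinoma and other carcinomas for their level in tumors.

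The libraries held 31953729 to 37557507 expected counts. As a check of the labels, RBM10 was read first: shScr had 83.2 and 86.2 CPM (counts scaled to the library size), shRBM10#1 had 59.8 and 56.4, and shRBM10#2 had 27.2 and 26.9. It was left at 68.6% of the control with shRBM10#1 and 31.9% with shRBM10#2, so the shRNAs differed in the depth of the knockdown (edgeR FDR 2.28e-04 and 5.1e-08). Here and below, FDR is the p-value of edgeR's quasi-likelihood test after Benjamini-Hochberg adjustment over all genes, and log2 FC is the log2 ratio of the fitted levels. Of the markers of lung epithelium, KRT7, KRT8, KRT18, KRT19, EPCAM, CDH1 and EGFR were abundant, whereas the lineage genes NKX2-1 and SFTPB had 31 and 3 counts over all libraries and NAPSA had 71. Of immune markers, PTPRC and CD3E had 19 and 7 counts in all, but CD68 had 19724 and fell with each shRNA (log2 FC -0.33 and -0.42, edgeR FDR 0.00411 and 7.88e-04). Of fibroblast markers, COL1A2 and PDGFRB had 17 and 39 counts, but COL1A1 had 1975 and fell with shRBM10#2 (log2 FC -0.37, edgeR FDR 0.0403). Of the endothelial markers, CDH5 and PECAM1 rose with shRBM10#1 (log2 FC 0.95 and 0.54, edgeR FDR 4.11e-04 and 0.0459) and VWF fell with shRBM10#2 (log2 FC -0.96, edgeR FDR 0.042). The 3 endothelial markers summed to 6.02 to 12.7 TPM (counts corrected for transcript length and library size) over the libraries. The part of all these markers in the results was not tested. The mean fragment length was 231 nt in shScr replicate 2 and 265 to 281 nt in the other libraries, and its part in the results was not tested either.

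LINC genes were scarce beside other genes. The median over the 125 genes was 245 counts in the 6 libraries together, against 5023 for all 14217 genes tested, and their median level was 1.26 TPM against 12.0 TPM. Of the 125, 52 lay below 1 TPM, 59 between 1 and 10 TPM, and 14 at 10 TPM or above. LINC00657, now called NORAD, was the most abundant at 138 TPM (98891 counts). LINC00152, now CYTOR, followed at 129 TPM and LINC00942 at 111 TPM. Next came LINC00493 at 64.9 TPM, LINC01278 at 50.4, LINC01420 at 42.2, LINC01578 at 33.4, LINC00467 at 30.7, LINC00998 at 25.8 and, in the tenth place, LINC01234. Of these 10, LINC00942, LINC01278, LINC01420, LINC01234 and LINC00657 did not pass the test in any of the comparisons below.

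**Figure D1:**
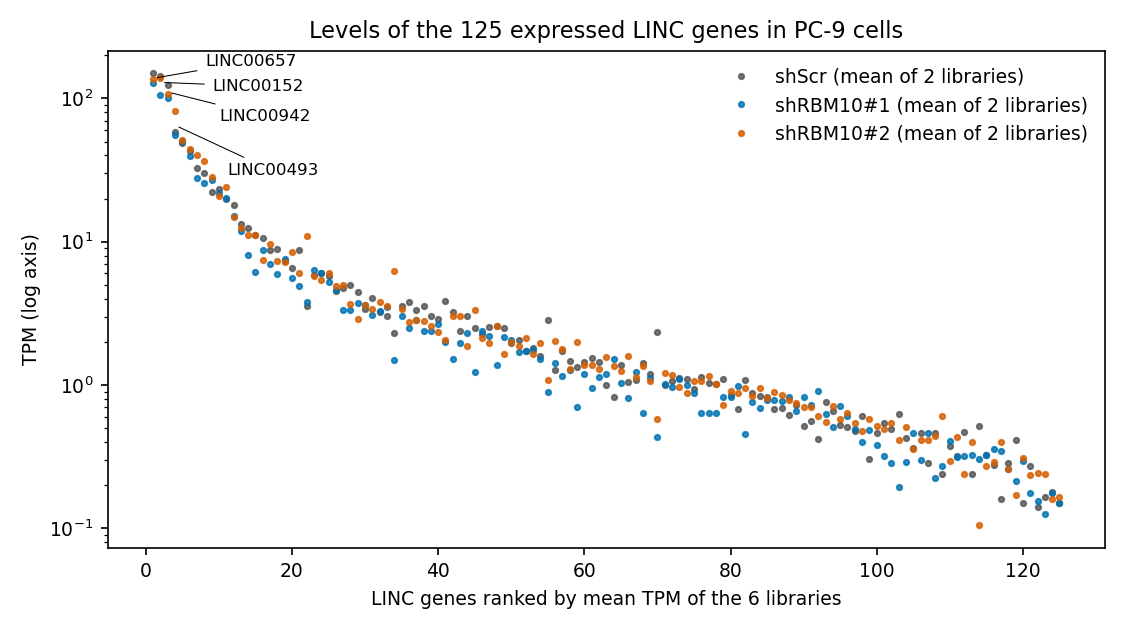
Level of each of the 125 expressed LINC genes in TPM on a log axis, against its rank by the mean of the 6 libraries, with 1 point per condition (mean of 2 libraries). LINC00657 (138 TPM), LINC00152 (129 TPM) and LINC00942 (111 TPM) stand above the rest, and 52 of the 125 genes lie below 1 TPM.

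LINC00657 was measured at 462 and 523 CPM in shScr, 454 and 458 with shRBM10#1, and 470 and 474 with shRBM10#2. The shScr libraries themselves spanned more than the other 4, and neither difference passed the test (log2 FC -0.11 and -0.06, edgeR FDR 0.322 and 0.552). This RNA held 14.0% to 16.8% of the TPM of all 125 genes. Without it, the 125 genes summed to 762 and 763 CPM in shScr, 698 and 716 with shRBM10#1, and 766 and 769 with shRBM10#2. The shRBM10#1 libraries were thus the lowest pair and the shRBM10#2 libraries the highest, in a sum that the choice of genes used and that is given as a description.

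At the lower edge of the selection, LINC01530 entered with 63 counts, LINC00893 with 66.2 and LINC01296 with 67.5. LINC00887, LINC01522 and LINC01133 stayed out with 57, 58 and 59 counts. Of the 125 genes, 6 had fewer than 40 counts outside their highest condition, among them LINC00460 with 32 counts outside shScr, so their entry depended on the condition in which they were high. All 125 passed the filter on low counts. LINC01296 shows how uncertain the faint ones are: its 6 libraries held 1.07 and 23.0 counts (shScr), 6.02 and 11.7 (shRBM10#1), and 24.1 and 1.69 (shRBM10#2). It is now annotated as DUXAP9, a pseudogene with near-identical copies, and its counts were not whole numbers because reads were shared between loci. Such sharing (a count further than 0.01 from a whole number in at least 1 library) touched 22 of the 125 genes, including LINC00152, LINC01002, LINC01123, LINC00847 and LINC00869, whose values are uncertain to that extent.

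All 125 genes were matched to the RefSeq annotation, 36 of them under a newer symbol. RefSeq now lists 115 as long noncoding RNA, 9 as protein-coding and 1 as a transcribed pseudogene. A protein-coding gene overlaps 22 of them, which matters because the sources used here do not state whether the libraries kept the strand. Of the 125, 12 start within 1 kb of the start of a coding gene on the opposite strand, such as LINC01389 beside FOXD2, and some of these are also overlapped by a coding gene.

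Promoters were available from RefSeq (GRCh38.p14) for 98 of the 125 genes. Those printed here belong to the genes that passed the test against shScr with each shRNA, and to LINC00152 and LINC01389, a pair of the genes that differed between the shRNAs. RefSeq's table held none for LINC01559. Each window holds 300 bases around the listed transcription start, and capitals mark exact matches on either strand to any of 5 short motifs. The TATA box was searched as TATAAA, and the site of the AP-1 factors Fos and Jun as TGACTCA. Further searches were for the CCAAT box by its own letters, for the GC box of Sp1 as GGGCGG, and for the E-box of MYC and related factors as CACGTG. The matches overlap in LINC00998, where 2 TATA boxes on opposite strands share bases.
LINC00460, chr13:106376314-106376613, plus strand: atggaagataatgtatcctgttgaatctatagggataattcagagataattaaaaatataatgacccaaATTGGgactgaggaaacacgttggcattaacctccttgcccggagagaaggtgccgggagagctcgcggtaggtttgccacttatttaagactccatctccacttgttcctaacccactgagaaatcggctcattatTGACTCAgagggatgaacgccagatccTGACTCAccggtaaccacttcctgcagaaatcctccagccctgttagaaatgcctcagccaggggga
LINC00665, chr19:36331669-36331968, minus strand: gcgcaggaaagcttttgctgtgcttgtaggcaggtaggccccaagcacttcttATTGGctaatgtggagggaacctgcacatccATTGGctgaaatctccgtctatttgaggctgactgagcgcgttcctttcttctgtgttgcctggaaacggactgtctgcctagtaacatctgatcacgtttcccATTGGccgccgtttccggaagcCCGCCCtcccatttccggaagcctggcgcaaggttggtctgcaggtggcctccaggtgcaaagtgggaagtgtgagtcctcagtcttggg
LINC00941, chr12:30795431-30795730, plus strand: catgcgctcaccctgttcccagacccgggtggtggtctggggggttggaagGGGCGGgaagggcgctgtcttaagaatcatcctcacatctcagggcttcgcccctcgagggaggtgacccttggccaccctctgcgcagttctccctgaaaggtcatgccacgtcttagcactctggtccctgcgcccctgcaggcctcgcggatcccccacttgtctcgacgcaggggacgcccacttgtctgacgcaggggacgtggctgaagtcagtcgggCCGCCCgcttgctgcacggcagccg
LINC00998, chr7:113118505-113118804, minus strand: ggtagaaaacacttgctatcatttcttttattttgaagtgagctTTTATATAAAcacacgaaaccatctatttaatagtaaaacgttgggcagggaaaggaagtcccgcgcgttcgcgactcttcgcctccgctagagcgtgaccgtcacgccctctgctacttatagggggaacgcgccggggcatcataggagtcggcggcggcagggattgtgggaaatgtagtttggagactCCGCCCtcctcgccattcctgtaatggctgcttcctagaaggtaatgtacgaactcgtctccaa
LINC00152, chr2:87455177-87455476, plus strand: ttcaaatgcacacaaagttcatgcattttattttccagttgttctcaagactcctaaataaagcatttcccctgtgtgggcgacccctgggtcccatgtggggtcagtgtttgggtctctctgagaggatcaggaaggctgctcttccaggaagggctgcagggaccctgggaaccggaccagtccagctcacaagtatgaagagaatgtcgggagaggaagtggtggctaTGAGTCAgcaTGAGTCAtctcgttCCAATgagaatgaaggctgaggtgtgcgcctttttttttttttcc
LINC01389, chr1:47437268-47437567, minus strand: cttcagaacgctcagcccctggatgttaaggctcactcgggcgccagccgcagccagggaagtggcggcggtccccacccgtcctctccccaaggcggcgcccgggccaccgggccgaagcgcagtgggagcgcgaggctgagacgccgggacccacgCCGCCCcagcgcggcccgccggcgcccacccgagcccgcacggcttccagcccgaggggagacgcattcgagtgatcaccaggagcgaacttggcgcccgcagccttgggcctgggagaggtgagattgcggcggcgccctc

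These promoters differed in their letters. That of LINC00460 held a pair of AP-1 sites that begin 44 and 17 bases before the start, and that of LINC00152 held a pair at 19 and 9 bases before it. Their GC contents were 46.7% and 49.7%, with 8 and 5 CpG dinucleotides, against a median of 14 over all 35116 promoters. LINC00665 had 3 CCAAT boxes and 1 GC box, LINC00941 had GC boxes alone, and LINC01389 was the richest in GC at 74.0% with 36 CpG dinucleotides. Over the 98 LINC promoters, an AP-1 match was found in 13 (13.3%), against 4.95% of all promoters. The other motifs were at nearby shares: TATA box 12.2% against 11.5%, CCAAT box 40.8% against 34.6%, GC box 48.0% against 45.0%, and E-box 7.14% against 7.26%. The LINC shares used the first listed promoter of each gene. The shares of all promoters used every listed start, of genes expressed in PC-9 cells or not. The sets are thus unlike, and no difference in share was tested. A match describes letters and was not tested for binding.

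The first comparison asked what the shallower knockdown did to these genes. With shRBM10#1, 12 of the 125 genes passed the test (9.6%, edgeR quasi-likelihood test, FDR below 0.05), while 14.0% of all 14217 genes did. Of the 12, 11 fell (8.8% of the LINC genes, 6.91% of all genes) and 1 rose (0.8%, 7.13% of all genes). With the further criterion of a log2 FC beyond 1 in either direction, 3 remained (2.4%, 1.88% of all genes). The 12, the 11 and the 3 each include LINC00460, which met the count limit only through shScr, so the selection favoured its fall. These shares are therefore a description. Of all 125 genes, 79 had a log2 FC below 0 (63.2%), against 48.4% of all genes, and the median log2 FC was -0.11 against 0.01. The test was less sensitive for LINC genes than for most: the median standard error (SE) of their log2 FC was 0.30, against 0.09 for all genes. Here and below, the SE is an approximation: the absolute log2 FC divided by the square root of the F statistic of edgeR's test. Of the 64 LINC genes at or above the median count, 9 were called, and 3 of those below it. The count of 12 became 6 without shRBM10#1 replicate 2 and 7 without either shScr library.

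The second comparison used the deeper knockdown and the same shScr libraries. With shRBM10#2, 16 of the 125 genes passed (12.8%), while 25.9% of all genes did. Of the 16, 9 rose (7.2%, 12.0% of all genes) and 7 fell (5.6%, 13.9% of all genes), and 6 also had a log2 FC beyond 1 (4.8%, 1.3% of all genes). The 16 and the 6 include LINC00460 and LINC01604, which met the count limit only through shScr and shRBM10#2 in turn. The selection thus favoured the fall of LINC00460 and the rise of LINC01604, and these shares are a description. A log2 FC below 0 was found for 57 of the 125 (45.6%), against 49.2% of all genes, and the median log2 FC was 0.04 against 0.01. This count rested heavily on single libraries: it was 1 without shRBM10#2 replicate 2, 8 without shRBM10#2 replicate 1, and 8 and 6 without shScr replicates 1 and 2.

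**Figure D2:**
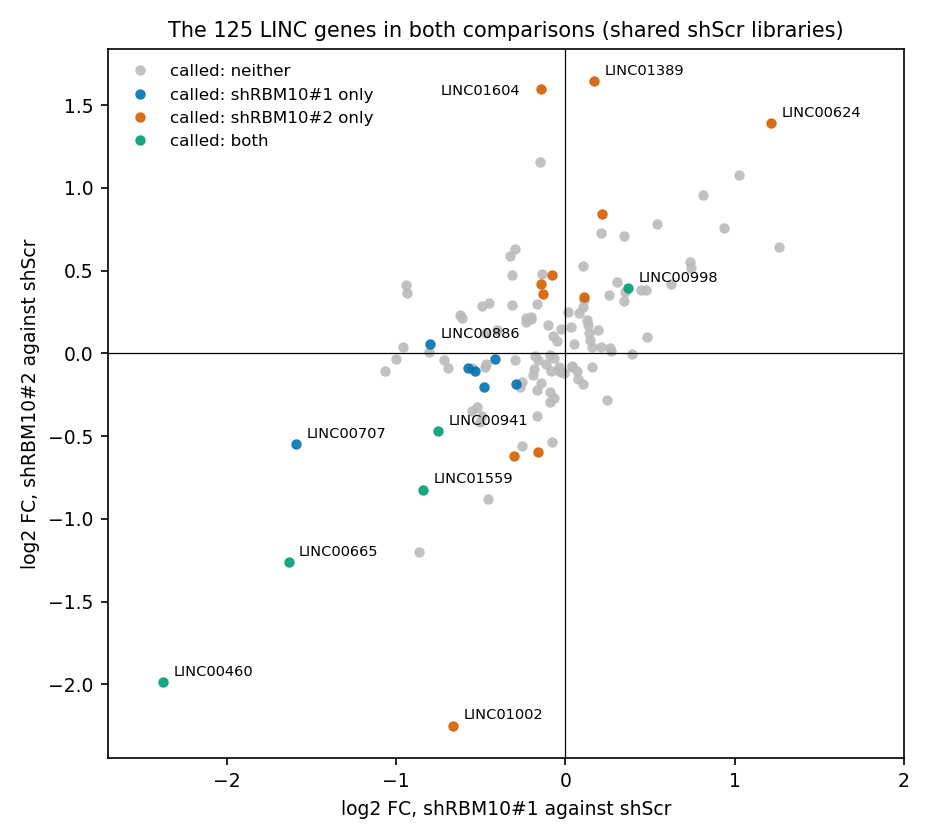
Log2 FC of each of the 125 LINC genes with shRBM10#1 (horizontal) and shRBM10#2 (vertical) against the same shScr libraries, colored by the comparisons in which it passed an FDR of 0.05. LINC00460 lies at -2.38 and -1.98, and LINC01389 at 0.17 and 1.64.

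LINC00460, LINC00665, LINC00941 and LINC01559 fell in each comparison with shScr, and LINC00998 rose in each; the comparisons share the shScr libraries, so they do not test these genes independently. LINC00460, a transcript studied in several carcinomas, was at 1.17 and 0.851 CPM in shScr, 0.224 and 0.163 with shRBM10#1, and 0.431 and 0.0783 with shRBM10#2. Each of the 4 RBM10 KD libraries was below both shScr libraries. Its level was left at 19.2% of the control with shRBM10#1 (log2 FC -2.38 ± 0.58, SE, edgeR FDR 0.0171) and 25.3% with shRBM10#2 (-1.98 ± 0.54, FDR 0.0185). Its total of 98 counts makes the size of this fall imprecise, and shScr held most of them. With 32 counts outside shScr, it met the count limit only through shScr, so the selection favoured a fall. Its FDR values are given as a description for that reason. Separation of the KD libraries from shScr, given here and below for single genes, was common in these data. With shRBM10#1, the libraries did not overlap shScr, in either direction, for 53.6% of all genes and for 56 of the LINC genes. With shRBM10#2, this held for 66.6% of all genes and for 69 of the LINC genes. Such separation is therefore a description and not evidence particular to a gene.

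LINC00665 showed a fall of similar extent, from 1.36 and 1.70 CPM in shScr to 0.703 and 0.299 with shRBM10#1 and 0.727 and 0.548 with shRBM10#2. No KD library reached the lower shScr library. The fitted levels were 32.2% and 41.8% of the control (log2 FC -1.64 ± 0.40 and -1.26 ± 0.37, edgeR FDR 0.0158 and 0.0263).

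LINC01559 was better counted, with 1063 counts in all. It stood at 6.47 and 8.08 CPM in shScr, 4.09 and 4.05 with shRBM10#1, and 4.52 and 3.71 with shRBM10#2. The KD libraries lay close together and below shScr, at 55.9% and 56.5% of the control (log2 FC -0.84 ± 0.16 and -0.82 ± 0.16, edgeR FDR 0.00436 and 0.00332). LINC00941 was at 9.86 and 8.78 CPM in shScr, 6.23 and 4.89 with shRBM10#1, and 6.95 and 6.50 with shRBM10#2. Again no KD library overlapped shScr, and its log2 FC was -0.75 ± 0.14 (FDR 0.00376) and -0.47 ± 0.14 (FDR 0.0249).

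**Figure D3:**
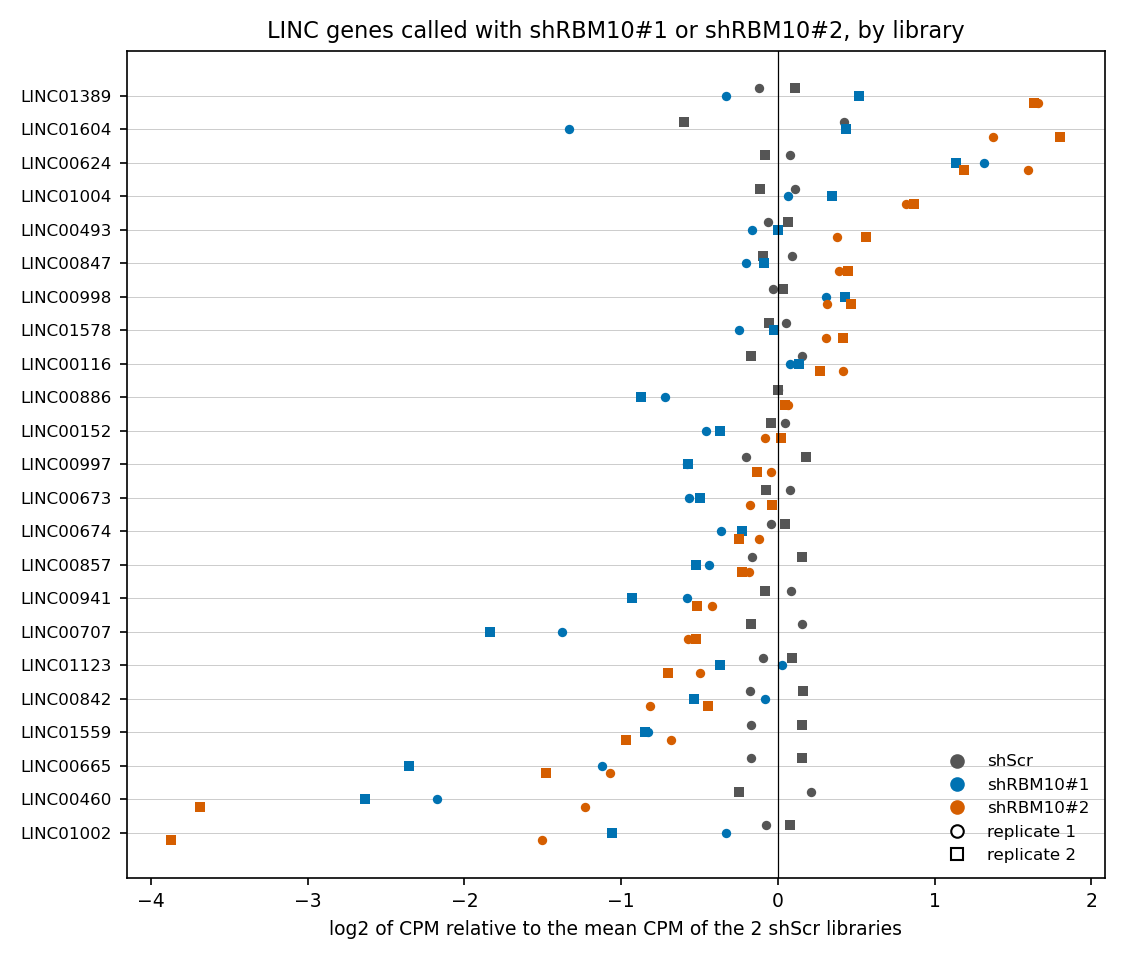
CPM of each library relative to the mean of the 2 shScr libraries, on the log2 scale, for the 23 LINC genes that passed an FDR of 0.05 with at least 1 of the shRNAs (circle, replicate 1, and square, replicate 2). The genes are ordered by log2 FC with shRBM10#2, from LINC01389 (1.64) down to LINC01002 (-2.25), and shRBM10#1 libraries of LINC00886 lie apart from both other conditions.

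The remaining 7 genes that fell with shRBM10#1 were LINC00707, LINC00886, LINC00997, LINC00673, LINC00857, LINC00152 and LINC00674. LINC00886 gave the cleanest separation. It was at 5.17 and 5.16 CPM in shScr, 3.13 and 2.82 with shRBM10#1, and 5.41 and 5.32 with shRBM10#2. Only the shRBM10#1 libraries were low, with a log2 FC of -0.80 ± 0.15 (edgeR FDR 0.00413), while that with shRBM10#2 was 0.05 (FDR 0.812). The difference between the shRNAs passed its own test (log2 FC 0.85 ± 0.15, FDR 0.00199).

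LINC00673, a transcript downstream of SOX9, was at 17.2 and 15.4 CPM in shScr, 11.0 and 11.5 with shRBM10#1, and 14.4 and 15.8 with shRBM10#2. It fell with shRBM10#1 (log2 FC -0.53 ± 0.10, edgeR FDR 0.0042), and differed between the shRNAs (0.42 ± 0.10, FDR 0.00953). LINC00152, the cytoskeleton regulator RNA CYTOR, was at 23.2 and 21.9 CPM, 16.4 and 17.5, and 21.3 and 22.8 in the same order. Its shRBM10#1 libraries were below the others, with a log2 FC of -0.41 ± 0.09 against shScr (FDR 0.00716) and of 0.38 ± 0.09 between the shRNAs (FDR 0.00713). CYTOR has a near-identical copy on the same chromosome, and reads of the 2 copies can be divided between them.

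LINC00707 was at 1.29 and 1.03 CPM in shScr and 0.448 and 0.326 with shRBM10#1, a log2 FC of -1.59 ± 0.37 (edgeR FDR 0.0121). With shRBM10#2 it was at 0.781 and 0.809 CPM, below shScr but not past the test (log2 FC -0.55, FDR 0.238), nor did the shRNAs differ by the test (1.05, FDR 0.0604). The other 3 changed less. LINC00997 had a log2 FC of -0.58 (FDR 0.0485), LINC00857 of -0.48 (FDR 0.023) and LINC00674 of -0.29 (FDR 0.0357) with shRBM10#1.

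With shRBM10#2, 3 further genes fell: LINC01002, LINC00842 and LINC01123. LINC01002 was at 1.45 and 1.61 CPM in shScr, 1.22 and 0.733 with shRBM10#1, and 0.539 and 0.104 with shRBM10#2. Its replicates disagreed most in the condition where it was lowest, and the log2 FC there was -2.25 ± 0.50 (edgeR FDR 0.00639), at 21.0% of the control. Reads of LINC01002 are shared with other loci, and it overlaps several annotated genes on chromosome 19. LINC01123 fell from 13.5 and 15.3 CPM in shScr to 10.2 and 8.88 (log2 FC -0.60 ± 0.14, FDR 0.00746), and with shRBM10#1 it was at 14.7 and 11.2 CPM. LINC00842 had a log2 FC of -0.62 (FDR 0.038).

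Of the 9 genes that rose with shRBM10#2, LINC01389 had the largest fitted change and LINC01604 the next, a difference well within their SE. It stood at 1.29 and 1.52 CPM in shScr, 1.12 and 2.01 with shRBM10#1, and 4.44 and 4.36 with shRBM10#2. Both shRBM10#2 libraries were above all others, at 312% of the control (log2 FC 1.64 ± 0.25, edgeR FDR 8.3e-04), and the difference between the shRNAs was 1.47 ± 0.24 (FDR 0.0013). LINC01604, now MINCR, a transcript known as MYC-induced, was at 0.431 and 0.213 CPM in shScr, 0.128 and 0.434 with shRBM10#1, and 0.835 and 1.12 with shRBM10#2. It rose by a log2 FC of 1.60 ± 0.50 (FDR 0.0332) from few counts, 115 in all, and passed in 6 of 11 alternative settings.

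LINC00624 was at 0.339 and 0.304 CPM in shScr and at 0.969 and 0.731 with shRBM10#2 (log2 FC 1.39 ± 0.40, edgeR FDR 0.023). With shRBM10#1 it stood at 0.799 and 0.706 CPM, also above shScr, without passing the test (1.21 ± 0.41, FDR 0.0685). LINC01004 rose by 0.84 ± 0.29 (FDR 0.0475) with shRBM10#2, and passed in 6 of 13 alternative settings. LINC01578, now CHASERR, a transcript upstream of CHD2 that is known to restrain it, was at 30.1 and 28.0 CPM in shScr, 24.4 and 28.5 with shRBM10#1, and 35.9 and 38.7 with shRBM10#2. It rose with shRBM10#2 (0.36 ± 0.09, FDR 0.0102), and CHD2 itself had a log2 FC of -0.17 (FDR 0.0887). With shRBM10#1, LINC01578 and CHD2 each had a log2 FC of -0.13 (FDR 0.373 and 0.229). Between the shRNAs, LINC01578 differed by 0.49 (FDR 0.00208) and CHD2 by -0.04 (FDR 0.733). A relation between the levels of LINC01578 and CHD2 was not tested. LINC00847 rose by 0.42 (FDR 0.0242), and lies over ZFP62, which rose by 0.30 (FDR 0.0116), so reads of the pair may not be separable without strand.

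The other 3 genes that rose with shRBM10#2, LINC00998, LINC00493 and LINC00116, hold a microprotein reading frame, as does LINC01420. SMIM30, from LINC00998, is a membrane microprotein of the endoplasmic reticulum. SMIM26, from LINC00493, and mitoregulin (MTLN), from LINC00116, are found in mitochondria, and NBDY, from LINC01420, binds the mRNA decapping machinery of P-bodies. Their reading frames in GENCODE 29 transcripts are shown because they are what set these LINC genes apart from noncoding ones, with the start and stop codons in capitals.
LINC00998 (SMIM30): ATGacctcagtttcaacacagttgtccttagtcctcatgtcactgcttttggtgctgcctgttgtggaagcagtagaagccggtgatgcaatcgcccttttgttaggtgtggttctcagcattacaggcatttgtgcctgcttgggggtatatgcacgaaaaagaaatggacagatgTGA
LINC00493 (SMIM26): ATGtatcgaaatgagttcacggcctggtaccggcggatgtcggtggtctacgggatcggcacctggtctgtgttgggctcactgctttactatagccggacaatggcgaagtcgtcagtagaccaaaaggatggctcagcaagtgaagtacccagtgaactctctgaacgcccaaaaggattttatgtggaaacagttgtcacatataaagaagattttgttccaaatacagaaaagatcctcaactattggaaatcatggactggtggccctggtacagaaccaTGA
LINC00116 (MTLN): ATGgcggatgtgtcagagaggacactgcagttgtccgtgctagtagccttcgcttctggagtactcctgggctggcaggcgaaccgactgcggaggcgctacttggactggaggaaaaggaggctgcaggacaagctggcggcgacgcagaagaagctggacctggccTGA
LINC01420 (NBDY): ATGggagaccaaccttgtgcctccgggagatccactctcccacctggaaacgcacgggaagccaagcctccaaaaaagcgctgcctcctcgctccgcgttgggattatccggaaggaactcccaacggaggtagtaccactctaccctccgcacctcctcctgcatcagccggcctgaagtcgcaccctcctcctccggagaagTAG

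These frames hold 59, 95, 56 and 68 codons before the stop. LINC00998 was at 11.1 and 11.6 CPM in shScr, 14.1 and 15.3 with shRBM10#1, and 14.1 and 15.7 with shRBM10#2. All 4 KD libraries were above shScr, and it rose in each comparison (log2 FC 0.37 ± 0.10, edgeR FDR 0.0293, and 0.39 ± 0.10, FDR 0.014). Its call with shRBM10#1 passed in 5 of the 13 alternative settings, with an FDR of up to 0.134. LINC00493 was at 8.56 and 9.36 CPM in shScr, 7.99 and 8.96 with shRBM10#1, and 11.6 and 13.2 with shRBM10#2. Its shRBM10#2 libraries were above the other 4 (log2 FC 0.47 ± 0.12, FDR 0.0111, and 0.55 ± 0.12 between the shRNAs, FDR 0.005).

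LINC00116 stood at 19.6 and 15.6 CPM in shScr, 18.6 and 19.4 with shRBM10#1, and 23.5 and 21.2 with shRBM10#2. It rose with shRBM10#2 (log2 FC 0.34 ± 0.11, edgeR FDR 0.0331), and its log2 FC with shRBM10#1 was 0.11 (FDR 0.555). LINC01420, at 12.0 and 12.3, 10.3 and 13.2, and 13.6 and 12.1 CPM, overlapped in all conditions (log2 FC -0.05 and 0.08). Of the 6 microprotein hosts listed, 4 were tested: 1 rose with shRBM10#1 and 3 with shRBM10#2. Their median log2 FC was 0.03 and 0.37, against 0.01 for all genes in each comparison, of which 7.13% and 12.0% rose. The list does not hold all 9 LINC genes that RefSeq now lists as protein-coding. LINC00094, LINC00341 and LINC00672 are among those outside it, and did not pass with either shRNA.

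**Figure D4:**
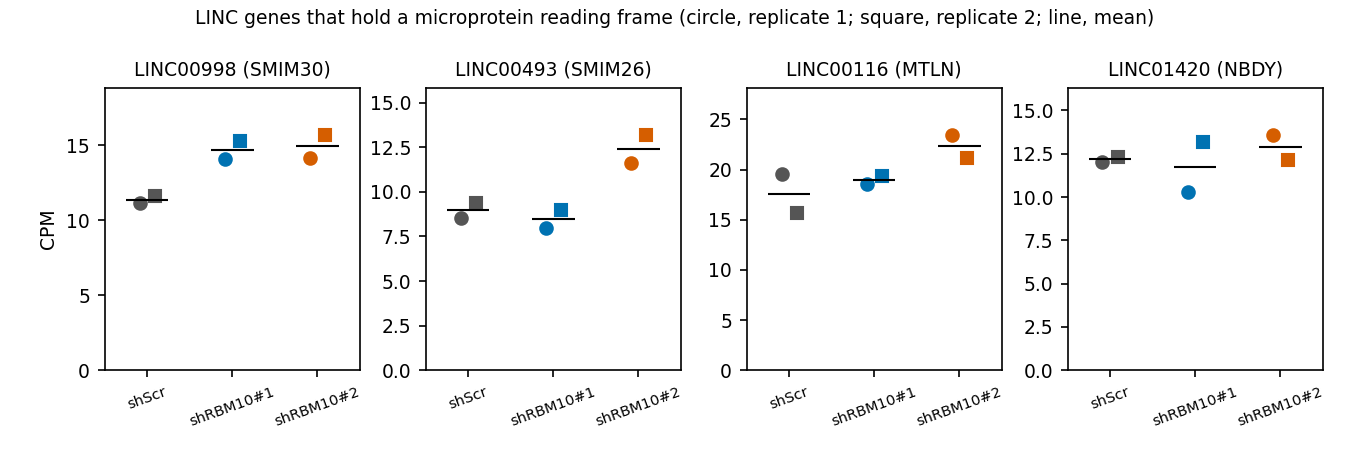
CPM in each library of the 4 tested LINC genes on the list of microprotein hosts (circle, replicate 1, square, replicate 2, and line, mean of the condition, with axes from 0). LINC00998 is higher in all 4 RBM10 KD libraries, LINC00493 in the shRBM10#2 libraries alone, and LINC01420 overlaps between conditions.

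Among LINC genes studied in lung adenocarcinoma, 13 of 25 listed were tested, and 11 of those had the 60 counts. With shRBM10#1, 6 of the 13 fell and none rose at this FDR, with a median log2 FC of -0.48, while 6.91% of all genes fell, 7.13% rose and the median of all genes was 0.01. They were LINC00460, LINC00665, LINC00941, LINC00673 and LINC00857, with LINC01133 outside the 125. With shRBM10#2, 3 fell (LINC00460, LINC00665 and LINC00941), with a median of -0.11, while 13.9% of all genes fell, with a median of 0.01. LINC00460 met the count limit only through shScr, as given above. LINC01234 (log2 FC -0.02 and -0.11), LINC00662 (0.15 and 0.08), LINC00472 (0.08 and 0.24) and LINC01503 (-0.09 and -0.23) did not pass with either shRNA. The list was drawn up with earlier results of these data known. Of a short list of 8 renamed LINC genes, which does not hold all 36 with a newer symbol, 3 were tested (LINC00657, LINC00152 and LINC00094), of which LINC00152 fell with shRBM10#1 and none passed with shRBM10#2.

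The shRNAs were also compared with each other, which tests directly where they differ. Between shRBM10#2 and shRBM10#1, 17 of the 125 genes differed (13.6%), while 25.5% of all genes did. Of these, 15 were higher with shRBM10#2 (12.0% of the LINC genes, 11.0% of all genes) and 2 were lower (1.6%, 14.5% of all genes). A log2 difference beyond 1 was held by 4 of them (3.2%, 1.19% of all genes): LINC01604 at 1.74, LINC01002 at -1.58, LINC01389 at 1.47 and LINC01315 at 1.30. LINC00869 followed at 1.00 (edgeR FDR 0.0372). In the alternative settings, LINC01315 passed in 4 of 11, LINC01002 in 5 of 11 and LINC00869 in 5 of 12. LINC01604 passed in 8 of 11 and LINC01389 in 13 of 13. LINC01604 met the count limit only through shRBM10#2, so the selection favoured its difference. A value below 0 was found for 42 of the 125 (33.6%), against 49.2% of all genes, and the median was 0.13 against 0.01. Without shRBM10#2 replicate 2, 3 genes were called, and 11 and 10 without shRBM10#1 replicate 1 and shRBM10#2 replicate 1. The deeper knockdown and the shRNA sequence cannot be told apart in this design.

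The methods compare RBM10 KD with control without separating the shRNAs. When the 4 RBM10 KD libraries were taken as 1 group, only LINC01559 passed (0.8%, 1.62% of all genes). Its log2 FC was -0.83 ± 0.15 (edgeR FDR 0.0365). This call passed in 8 of the 13 alternative settings, with an FDR of up to 0.406: it was lost with the replicate block, with limma on TPM, and without shScr replicate 1, shScr replicate 2 or shRBM10#1 replicate 2. It was among those lower (1.08% of all genes), no LINC gene was called higher (0.542% of all genes), and none passed with a log2 FC beyond 1 (0.394% of all genes). At an unadjusted p below 0.05 there were 12, and DESeq2 called 4 at the FDR. LINC00460 had the largest pooled fall at -2.16 ± 0.49 (FDR 0.0695), given as a description because the selection through shScr favoured a fall. In this grouping, differences between the shRNAs count as spread: RBM10 itself had a log2 FC of -0.99 and an FDR of 0.146. With 1 coefficient per condition and the mean of the shRNAs as the contrast, 13 LINC genes passed (10.4%, 18.4% of all genes). Of these, 10 were lower (9.85% of all genes) and 3 higher (8.51% of all genes).

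Because RBM10 acts on splicing, isoform usage was tested as a readout that the selection by gene totals did not use. Of the 125 genes, 91 had a single isoform in the tables, 34 had more, and 20 could be tested. None changed usage with either shRNA by edgeR's diffSpliceDGE (FDR below 0.05), while 0.172% of 6405 genes did with shRBM10#1 and 2.75% with shRBM10#2. At an unadjusted p below 0.05 there was 1 with each shRNA, and limma's diffSplice called none. That gene was LINC00847 (FDR 0.534 and 0.465). Of its 3 isoforms, 1 was listed at 0 counts in both shScr libraries, at 39.4 and 47.4 with shRBM10#1, and at 23.8 and 35.1 with shRBM10#2. The power was limited: on simulated counts, 16.0% and 21.0% of 200 genes changed by a log2 FC of 2 in an isoform were recovered with shRBM10#1 and shRBM10#2, and 51.5% and 60.5% at a log2 FC of 4. False calls numbered 16 and 15 at a log2 FC of 2, and 18 and 29 at a log2 FC of 4. The simulation covered all genes tested, not LINC genes at their own depth, and the count of 0 does not show that usage was unchanged.

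Transcripts of neighbouring genes can rise and fall with a LINC gene, so the nearest coding genes were read from the same fit. A gene called a neighbour, or beside a LINC gene, is the next coding gene on that side at any distance. Distances were not compared. The 23 genes called with at least 1 shRNA had 53 listed neighbours or overlapping genes, of which 35 were tested. With shRBM10#1, 4 of 17 tested neighbours of called genes passed, 3 in the direction of the LINC gene. With shRBM10#2, 6 of 24 passed, 4 in the same direction. Each same-direction count includes EFNB2, the neighbour of LINC00460, whose own fall the selection favoured, so these counts are a description. Of all genes tested, 14.0% and 25.9% passed in these comparisons.

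EMP1, which encodes an epithelial membrane protein and lies beside LINC01559, was at 159 and 162 CPM in shScr, 84.2 and 72.4 with shRBM10#1, and 94.9 and 101 with shRBM10#2. Like LINC01559, all its KD libraries were below shScr (log2 FC -1.04, edgeR FDR 8.23e-06, and -0.72, FDR 1.14e-04). EFNB2, which encodes the Eph receptor ligand ephrin-B2 and lies beside LINC00460, was at 35.2 and 39.8 CPM in shScr, 18.4 and 14.7 with shRBM10#1, and 18.6 and 18.9 with shRBM10#2. It fell in each comparison too (-1.18, FDR 2.58e-05, and a fall to 50.0% of the control, FDR 9.9e-05). TIPARP, a mono-ADP-ribosyltransferase gene beside LINC00886, fell with shRBM10#1 from 28.8 and 29.2 to 19.5 and 19.8 CPM (-0.56, FDR 4.67e-04). With shRBM10#2 it was at 24.7 and 25.4 CPM (-0.21, FDR 0.0558), and the shRNAs differed by 0.35 (FDR 0.00627).

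Other neighbours moved against their LINC gene or without it. FOXD2, a forkhead transcription factor gene that starts within 1 kb of LINC01389 on the other strand, was at 9.36 and 9.24 CPM in shScr and rose with shRBM10#1 to 12.8 and 15.4 (log2 FC 0.61, edgeR FDR 0.00458). With shRBM10#2, where LINC01389 rose, FOXD2 stood at 9.26 and 10.5 CPM (0.09, FDR 0.645). ANXA11, an annexin gene beside LINC00857, rose by 0.23 (FDR 0.0247) with shRBM10#1 while LINC00857 fell. With shRBM10#2, ZFP14 rose by 0.43 (FDR 0.022) beside LINC00665, and MGAT1 fell by 0.34 on the log2 scale (FDR 0.00483) beside LINC00847. LINC01184, head to head with SLC12A2, had a log2 FC of 0.35 and 0.32 without passing, whereas SLC12A2 rose by 0.83 (FDR 2.15e-04) and 0.45 (FDR 0.00698).

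**Figure D5:**
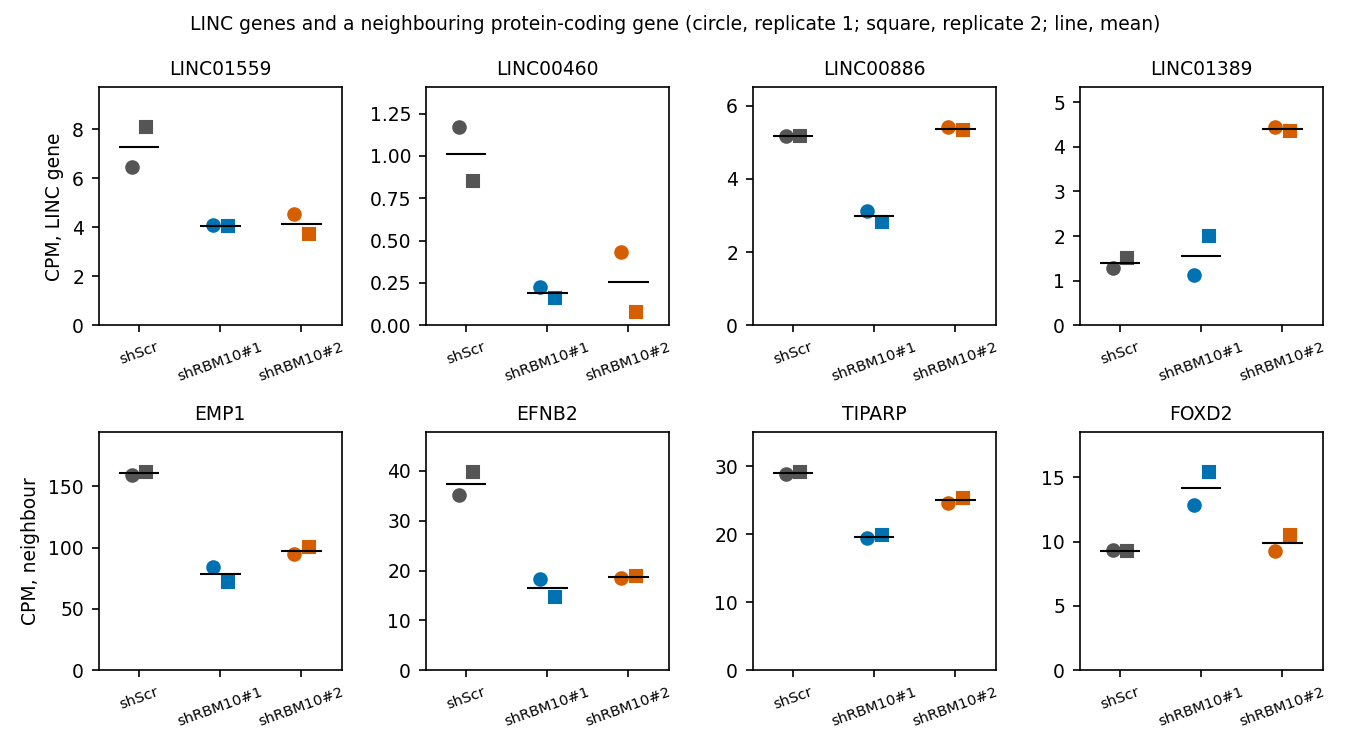
CPM of 4 LINC genes (upper row) and of a neighbouring coding gene (lower row) in each library (circle, replicate 1; square, replicate 2; line, mean; axes start at 0). EMP1 and EFNB2 are lower in all 4 KD libraries as LINC01559 and LINC00460 are, and FOXD2 is highest with shRBM10#1 whereas LINC01389 is highest with shRBM10#2.

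For comparison, 34 of 49 listed long noncoding RNA genes with other names were tested. With shRBM10#1, 7 fell and 1 rose, while 6.91% of all genes fell and 7.13% rose. With shRBM10#2, 5 fell and 9 rose, against 13.9% and 12.0% of all genes. The imprinted H19 fell with each (log2 FC -1.31 and -1.27, edgeR FDR 0.00104 and 9.97e-04), as did the paraspeckle RNA NEAT1 (-0.42 and -0.41, FDR 0.0172 and 0.0129), and HOTAIR rose (0.96 in each, FDR 0.0131 and 0.00839). UCA1 resembled LINC00886 in its values, at 51.6 and 45.0 CPM in shScr, 32.6 and 35.0 with shRBM10#1, and 49.9 and 54.7 with shRBM10#2. Between the shRNAs, 11 of the 34 were higher with shRBM10#2 and 1 was lower, beside 15 and 2 of the 125 LINC genes and 11.0% and 14.5% of all genes. This difference in proportion was not tested.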

How the data were processed

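RNA of PC-9 cells was sequenced in 6 libraries (2 each of shScr, shRBM10#1 and shRBM10#2). According to the submitters' processing notes, STAR 2.4, RSEM 1.2.29, edgeR and the hg19 build were used. The authors deposited 1 expected count per isoform and library for 51398 RefSeq isoforms, with shared reads divided by RSEM so that fractions occur. The authors also deposited TPM and isoform lengths; read length and strand are not given in the sources used here. FPKM and isoform percentages were not used here.

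Expected counts and TPM were summed per gene symbol. Expected counts were rounded and tested with edgeR 4.0.16 in R 4.3.3 (quasi-likelihood test, TMM, filterByExpr, 1 coefficient per condition, 3 residual degrees of freedom, Benjamini-Hochberg adjustment over all 14217 genes, the FDR printed here), and CPM used TMM. Isoform usage was tested with diffSpliceDGE (Simes). limma 3.58.1 and DESeq2 1.42.0 served as alternatives. On simulated counts of 14217 genes, 200 were changed by a log2 FC of 2. Of these, 98.0%, 96.5%, 99.0% and 98.5% were recovered with shRBM10#1, with shRBM10#2, between the shRNAs and in the pooled comparison. False calls numbered 14, 25, 23 and 12 in the same order. This simulation drew on all genes tested, not on LINC genes at their own depth. RefSeq tables (GRCh38.p14) gave names, neighbours and promoters only, since the files use hg19. Reading frames are those shared by most GENCODE 29 transcripts of the gene, or else the longest.

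The members and gene lists were chosen with earlier results of these data known. Named genes are those with the largest called log2 FC (10 per shRNA, 5 between shRNAs), the 10 highest by TPM, 3 genes either side of the count limit, the gene lists, and neighbours of called genes; other called genes were named after their values were seen. The alternatives were another tool or scaling, other filters on low counts, a replicate block, limma on log2(TPM + 0.1), other limits for members (30 or 120 counts), fits of only the conditions compared, and each library left out.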

Additional observations from a re-analysis of the deposited data

Results flagged for a closer look

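The shRNAs differed in their effect on 17 LINC genes by the test of the difference itself (edgeR quasi-likelihood test, FDR below 0.05). This was 13.6% of the LINC genes, a smaller share than the 25.5% of all genes that differed. The log2 difference of shRBM10#2 against shRBM10#1 was below 0 for LINC01002 (-1.58) and LINC01123 (-0.43). It was above 0 for LINC00152 (0.38), LINC00673 (0.42), LINC00467 (0.46), LINC01578 (0.49), LINC00888 (0.54), LINC00493 (0.55) and LINC00847 (0.56). The same held for LINC01521 (0.59), LINC00239 (0.82), LINC00886 (0.85), LINC01468 (0.96), LINC00869 (1.00), LINC01315 (1.30), LINC01389 (1.47) and LINC01604 (1.74). The value of LINC01604 is a description, since it met the count limit only through shRBM10#2. LINC00239 shows the width of the spread: it was at 3.60 and 2.04 CPM in shScr, 1.41 and 1.79 with shRBM10#1, and 2.45 and 3.21 with shRBM10#2. LINC01468, now LNCAROD, was at 1.39 and 1.61, 0.735 and 0.760, and 1.78 and 1.15 CPM.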

How the results depend on the processing

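With shRBM10#1, 12 LINC genes passed, and 10, 11 or 12 did with DESeq2, limma on log2(TPM + 0.1) or DESeq2's size factors, and 18 without a filter on low counts. With shRBM10#2, 16 passed, but 10 with DESeq2 and 10 with limma on TPM. Between the shRNAs, 17 passed, but 9 with DESeq2, which left 71 of the 125 genes with an adjusted p. In the pooled comparison 1 passed, but 4 with DESeq2, 2 without the filter, 0 with the replicate block and 13 with 1 coefficient per condition. A log2 FC beyond 1 as a further criterion left 3, 6, 4 and 0 genes in the 4 comparisons. Leaving out each library in turn gave 6 to 12 genes with shRBM10#1 (6 without shRBM10#1 replicate 2, 7 without either shScr library), 1 to 19 with shRBM10#2, 3 to 15 between the shRNAs and 0 to 2 in the pooled comparison. In the last, 0 passed without shScr replicate 1, shScr replicate 2 or shRBM10#1 replicate 2, and 2 without shRBM10#2 replicate 1. Of the 16 genes called with shRBM10#2, 1 was kept without shRBM10#2 replicate 2. A condition left with 1 library was assumed to vary like the others. No LINC gene changed isoform usage under the alternatives run.

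Of 493 values of the 39 named calls under alternatives, 381 stayed past the threshold, 112 did not, and 0 turned direction. LINC00673, LINC00886 and LINC00941 (shRBM10#1), LINC01389 (shRBM10#2), and LINC00886, LINC01389 and LINC01578 (between the shRNAs) passed in all 13 settings run for them. Among the weaker calls, LINC00997 and LINC00998 passed with shRBM10#1 in 4 and 5 of 13. With shRBM10#2, LINC01004 passed in 6 of 13 and LINC01604 in 6 of 11. Between the shRNAs, LINC01315 passed in 4 of 11, LINC01002 in 5 of 11 and LINC00869 in 5 of 12. The replicate numbers did not pair the libraries: same-numbered deviations from the condition means had correlations of -0.00383, -0.0193 and -0.0136 over 14217 genes. With the replicate block, 10, 15, 13 and 0 LINC genes passed in the 4 comparisons.

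LINC genes had a median of 245 counts against 5023 for all genes, and a median coefficient of biological variation of 0.13 against 0.06. With 2 libraries per condition, the spread is borrowed from all genes and conditions.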
